A study of Homo sapiens with 2 samples.

Results

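Heat shock proteins and chaperonins are the proteins that fold, hold and refold other proteins, and their genes were compared here between cultures of RKO, a human cell line from colon cancer, with and without a hairpin against BCLAF1-L. The genes were taken by symbol: every gene whose only platform symbol begins with HSPA, HSPB, HSPD, HSPE, HSPH, HSP90, DNAJA, DNAJB, DNAJC, CCT and a digit, or BAG and a digit, together with TCP1 and HSF1. This gave 90 of the 19775 genes that had a probe set with 1 symbol, on 206 probe sets. Of these, 5 are antisense or divergent transcripts that carry a chaperone gene's name. TCP1, HSPA8, HSPA1A and HSPA1B had no probe set of 1 symbol and have no value of their own here.

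Both groups were RKO cells infected with retrovirus, with fresh medium after 24 h and then puromycin at 2 ug/ml for 72 to 96 h. The sh-Luci group carried a control hairpin against luciferase, and the sh-BCLAF1-L group carried a single hairpin against BCLAF1-L, the long form of a nuclear protein that binds RNA-processing factors. Each group was 1 sample on 1 array, so all values are single measurements with no replicate check and no p-value. Fewer cells of a kind and less RNA per cell cannot be told apart in such bulk RNA. Any difference between the hairpins, the cultures and the arrays cannot be told apart.

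The chaperone system works as a relay. DNAJ proteins bring unfolded clients to HSP70 and trigger its ATP hydrolysis, nucleotide exchange factors such as HSPH1 and the BAG proteins release the client, and HSP90 or the chaperonin TRiC finish the folding of selected clients. Heat and other protein-damaging stress free the transcription factor HSF1, which binds repeated GAA units, called heat shock elements, in front of the inducible genes. The endoplasmic reticulum (ER) has chaperones of its own, controlled by the unfolded protein response, and so do mitochondria, where HSP60 (HSPD1) and HSP10 (HSPE1) form the folding chamber.

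Promoter sequences of the genes measured here were searched for the elements of both responses. RefSeq promoters of build GRCh38.p14 were found for 80 of the 90 genes, in 106 windows, since some genes have several start sites. The 250 bases before each start were searched on both strands for GAANNTTC or TTCNNGAA, a pair of facing GAA units, and for 3 alternating units, in which those pairs overlap by one unit. A gene counted as having a match if any of its windows held one. Genes with several windows, such as DNAJA4, DNAJB1 and HSPA4L, had more places to match, and the shares were not adjusted for this. A pair stood before 9 of the 11 HSF1-inducible genes, or 81.8%, against 14.0% of all 27305 genes in the table, which had 35116 windows. HSPH1 and BAG3 were the inducible genes with no pair in these windows. None of 12 ER genes had one, against 2 of 8 mitochondrial genes, 1 of 6 chaperonin subunits, 3 of 20 other constitutive genes and 5 of 18 tissue-restricted or other genes (27.8%), the second-highest share among the groups. All 3 alternating units stood before 5 of the 80 genes, or 6.25%, against 0.557% of all genes. The 5 were HSP90AA1, HSPA6, HSPD1, HSP90AB1 and DNAJB6. These matches are descriptions of letters and do not show binding. BAG4, CCT6A, DNAJC1, DNAJC22, DNAJC24, DNAJC5B, HSF1, HSPA12B, HSPA14 and HSPB2 had no entry.

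A selection of these elements is shown with the matched units in capitals, to let some inducible genes be compared with the constitutive HSP90AB1 and the mitochondrial HSPD1. Further matches, among them those of DNAJA1, DNAJA4, DNAJB4, HSPA4L, HSPB8, DNAJB6, CCT2 and DNAJC15 and a second pair each of HSP90AA1 and HSPA6, are not printed.
HSP90AA1, chr14:102087112-102087140, minus strand: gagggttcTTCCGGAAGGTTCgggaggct
HSPA6, chr1:161524451-161524493, plus strand: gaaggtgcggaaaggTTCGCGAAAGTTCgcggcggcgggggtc
HSP90AB1, chr6:44247770-44247798, plus strand: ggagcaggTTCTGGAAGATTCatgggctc
HSP90AB1, chr6:44247823-44247851, plus strand: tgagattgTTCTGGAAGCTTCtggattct
HSPD1, chr2:197500062-197500090, minus strand: gcattTTCTGGAAAGTTCTGGAAccgagc
DNAJB1, chr19:14518456-14518485, minus strand: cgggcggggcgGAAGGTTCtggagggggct
DNAJB1, chr19:14518426-14518455, minus strand: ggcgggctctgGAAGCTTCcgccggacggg
HSPB1, chr7:76302476-76302513, plus strand: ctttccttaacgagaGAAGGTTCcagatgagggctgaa

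The ER stress element, CCAAT and CCACG with 9 bases between them, was found before 2 of 12 ER genes, none of the other members and 0.0916% of all genes. Those 2 encode the ER forms of HSP70 and HSP90, and HSP90B1 held it in both orientations.
HSPA5, chr9:125241376-125241424, minus strand: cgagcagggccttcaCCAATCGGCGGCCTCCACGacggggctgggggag
HSP90B1, chr12:103930201-103930249, plus strand: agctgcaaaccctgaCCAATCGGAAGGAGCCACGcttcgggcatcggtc
HSP90B1, chr12:103930306-103930354, plus strand: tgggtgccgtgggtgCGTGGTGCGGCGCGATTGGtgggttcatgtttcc

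The hairpin's target and the arrays were checked first. BCLAF1 had an intensity of 2505 in control cells and 945 in knockdown cells on its brightest probe set and was lower on all 6 of its probe sets. The 18 probe sets of the bacterial spike-in controls all read higher after the knockdown, by a median log2 difference of 0.20 (0.05 to 0.33), which exceeds in size every chaperone group median below; the part of such an array difference in those medians was not tested. Of the 5 epithelial markers, 3 were detected on the arrays (KRT8, KRT18 and EPCAM), while KRT19 and CDH1 lay below the detection intensity, with 24.6 and 35.6 for CDH1. The summed intensity of the 5 epithelial markers was 1624 and 1340. The lower sum came from KRT18, with 979 and 674, whereas EPCAM (477 and 472) and KRT8 (96.0 and 97.6) were nearly level and KRT19 (46.4 and 61.1) and CDH1 were higher. In control and knockdown, the sums were 434 and 477 for 5 intestinal and 621 and 682 for 5 fibroblast markers. They were 372 and 380 for 3 blood cell and 405 and 410 for 5 endothelial markers. Of these markers, 4 intestinal, 4 fibroblast, 2 blood cell and 2 endothelial ones were also detected. Reaching the detection intensity thus does not by itself show a cell type.

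Chaperone genes differed little between the arrays, and HSPH1 was the only detected one with a log2 difference of at least 0.32 in size, the threshold used here. A difference is log2(intensity + 1) in the knockdown minus the control, on the brightest probe set of a gene, and a gene was counted as detected when its mean over both arrays reached an intensity of 63.7, the 40th percentile of all probe sets. Detection left 82 of the 90 members and 14507 genes in all. Of the 82, 1 was lower and none was higher by the threshold, where 2.21% and 4.16% of all detected genes were. DNAJC3-DT, a transcript divergent from DNAJC3, lay just inside it with 79.9 and 99.8 (0.317 against a threshold of 0.322). The differences of several probe sets for one gene scattered with an SD of 0.16, or 1.12-fold, and 15 of the 82 members (18.3%) lay farther than that from 0, against 31.0% of all detected genes. Brightness accompanied this: among genes with a mean intensity of at least 1000 the share was 17.9%, and it was 15.2% for the 33 members this bright.

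The direction of these small differences varied with the group. Lower in the knockdown were 43 of the 82 detected members (52.4%), with a median of -0.0065, where 45.0% of all detected genes were lower and 55.0% higher, with a median of 0.019. Among members at or above 1000, 22 of 33 (66.7%) were lower, against 47.4% of all genes that bright. The groups with the lowest medians, HSF1-inducible, chaperonin and mitochondrial, together had 20 of 26 members lower and a median of -0.079. This pool joins groups alike in direction, so its high share of lower genes is no separate result. ER genes had 10 of 13 higher and a median of 0.037. The ER median exceeded the HSF1-inducible median by 0.12, a difference that could not be tested with 1 array a group.

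**Figure D1:**
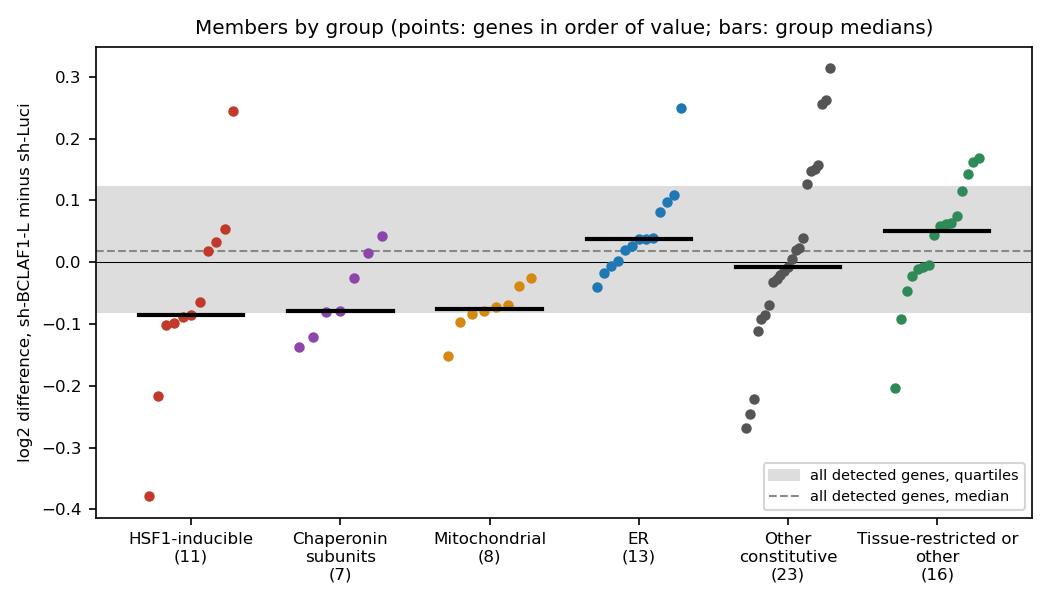
Log2 difference (vertical axis, knockdown minus control) of each detected member, by group, with the number of genes in parentheses and the group median as a black bar; grey marks the quartiles and the dashed line the median of all 14507 detected genes. The medians of the HSF1-inducible, chaperonin and mitochondrial groups lie below 0 and that of the ER group above it, and the HSF1-inducible median lies just under the grey band.

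HSF1 mRNA itself, the regulator, was at nearly the same level. Intensities of 357 and 373 gave a difference of 0.066, and 149 and 151 on its dimmer probe set gave 0.016. Both lay within the spread between probe sets of a gene.

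The HSF1-inducible group was led by HSPH1, an HSP110 protein that releases nucleotide from HSP70 and helps dissolve aggregates. Its intensity was 1685 in control cells and 1296 in knockdown cells, 1.30-fold lower (log2 difference -0.38), and lay among the lowest 1.3% of detected genes. Its other probe sets read 726 and 564, and 137 and 112, and were also lower, by differences of -0.36 and -0.29. The last of these, the only one whose name does not mark possible cross-matching, was inside the threshold. Of the 11 detected genes of the group, 7 were lower and 4 higher, with a median of -0.085, a ratio of 0.943 to the control.

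HSPB1 (HSP27), a small heat shock protein that holds unfolded clients, read 1719 and 1480, a difference of -0.22 on a single probe set. HSP90AA1, the inducible cytosolic HSP90, read 10572 and 9943, and its 4 probe sets were closely alike at -0.096 to -0.060. DNAJA1, an HSP40 that brings clients to HSP70, read 4449 and 4146, with -0.10 and -0.24 on its 2 probe sets. These genes were lower on each detected probe set, as were DNAJB1 (1037 and 992), the main HSP40 of the heat shock response, and HSPA4L (630 and 594), a further HSP110 relative. DNAJB4, another HSP40, read 525 and 490, and its second probe set went the other way, at 0.086.

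The remaining inducible genes were not lower. BAG3, which links HSP70 to selective autophagy, read 2383 and 2473. DNAJA4 read 353 and 362, and the small heat shock protein HSPB8, a partner of BAG3, 143 and 145. The dimmer detected probe set of HSPB8 read 73.2 and 89.4, a difference of 0.29. HSPA6, an HSP70 that is nearly silent without stress, read 68.7 and 81.6, just above the detection intensity; its difference was 0.25, and its other probe set, below detection, differed by -0.063. The inducible genes thus covered intensities from about the detection limit to among the brightest on the array, and the lower values lay mostly among the bright ones: 5 of the 6 at or above 1000 were lower, with a median of -0.095.

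The classic inducible HSP70 genes could be followed only on shared probe sets, for which no gene is named. There were 3 probe sets whose symbols all begin with HSPA1. The brightest read 3817 and 3884 (0.025), the next 1777 and 1742 (-0.029), and the third was below detection at 28.6 and 34.8. The bright ones were nearly equal on both arrays. Another 4 probe sets carry the symbol HSPA8 beside small nucleolar RNA symbols. HSPA8 is not counted among the inducible genes here. These 4 read between 5879 and 7996 in the control and differed by -0.071 to -0.047, all lower.

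**Figure D2:**
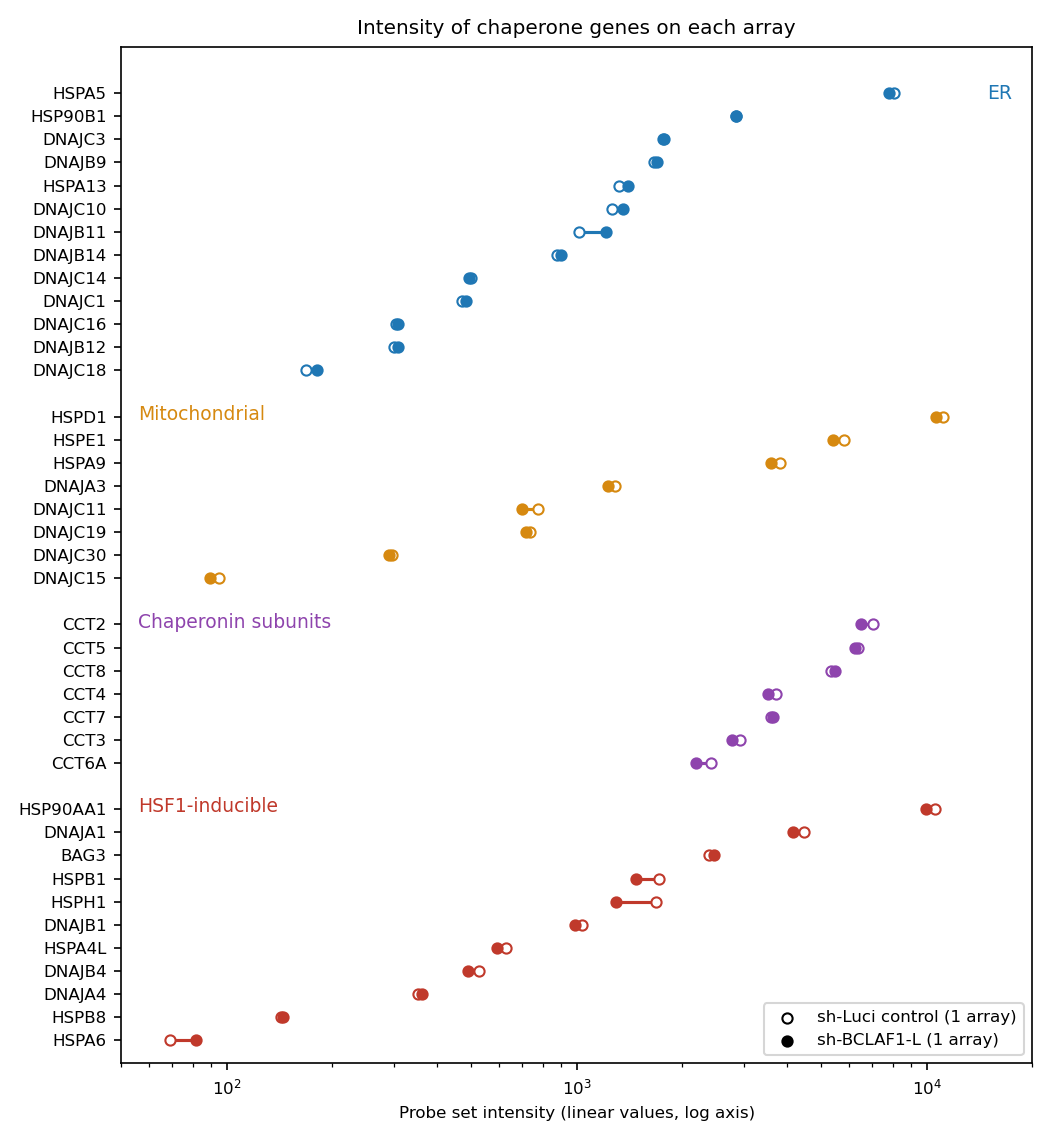
Probe set intensity (horizontal, log axis) of each detected HSF1-inducible, chaperonin, mitochondrial and ER gene, with an open circle for the control array and a filled circle for the knockdown array, joined by a line. The pairs nearly coincide, and the longest line is that of HSPH1, from 1685 to 1296.

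Subunits of the chaperonin TRiC, the double ring that folds actin and tubulin, were bright and mostly slightly lower. All 7 subunit genes with a value were detected, 5 were lower and 2 higher, and the median was -0.079, a ratio of 0.947. CCT6A read 2416 and 2197 (-0.14), and CCT2 read 7038 and 6472 (-0.12), with -0.075 and -0.26 on their other probe sets. CCT4 read 3717 and 3516 and CCT3 read 2929 and 2773, both near -0.08, and the dim second probe set of CCT4 differed by 0.23. CCT5 read 6354 and 6246, CCT7 3591 and 3630, and CCT8 5319 and 5478. The symbol of a further subunit, TCP1, stands only on probe sets shared with a small nucleolar RNA symbol. The brightest of these read 3372 and 3137 (-0.10), and the others differed by -0.15 and 0.0029. No subunit exceeded the within-gene SD of 0.16 on its brightest probe set, and a complex built from equal parts thus had subunit differences from -0.14 to 0.043.

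Mitochondrial chaperone genes were all slightly lower on their brightest probe sets. The 8 detected genes had differences from -0.15 to -0.026 and a median of -0.075, a ratio of 0.949. HSPD1 read 11135 and 10614, its partner HSPE1, which is transcribed away from it on the opposite strand, 5794 and 5417, and HSPA9 (mortalin), the HSP70 of the matrix, 3801 and 3600. DNAJC11, a factor of cristae organisation, was lowest with 776 and 699, a difference of -0.15, and -0.18 on its other probe set. DNAJA3, the HSP40 of HSPA9, read 1289 and 1226. The import motor subunit DNAJC19 read 738 and 719, its relative DNAJC15 95.1 and 89.7, and DNAJC30 296 and 291. The other probe sets of DNAJC15, below detection, differed by 0.27 and 0.0048, and the dimmer probe sets of DNAJC30 by 0.13 and -0.050.

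On the level of probe sets, 17 of 19 detected mitochondrial ones were lower, against 46.1% of all detected probe sets, and none of the 8 genes exceeded 0.16 on its brightest probe set. HSPD1 and HSPE1 are heat-inducible as well. HSPD1's dim probe sets differed most: 1 read 246 and 168 (-0.54) and another 79.8 and 61.2 (-0.38), whereas its bright ones differed by -0.069 and -0.022. Which transcripts the dim ones read was not analysed here.

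ER chaperones had a median above 0, smaller in size than those of the HSF1-inducible, chaperonin and mitochondrial groups. Of the 13 detected genes, 10 were higher (76.9%, against 55.0% of all detected genes) and 3 lower. Their median of 0.037 was close to that of all detected genes, 0.019. DNAJB11, an HSP40 that binds clients together with BiP, was highest with 1019 and 1212, a difference of 0.25 on 1 probe set. DNAJC10, a reductase that prepares misfolded proteins for export, read 1259 and 1357, but its 4 detected probe sets ran from -0.52 to 0.45. HSPA13, an HSP70 relative in microsomes, read 1323 and 1399 (0.081) and 0.23 on its other probe set.

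The ER forms of HSP70 and HSP90 were nearly level on their brightest probe sets. HSPA5 (BiP), the HSP70 of the ER and the standard marker of the unfolded protein response, read 8044 and 7826, a difference of -0.040, and -0.0080 on its other probe set. HSP90B1 (GRP94) read 2848 and 2853, while a further probe set of it read 856 and 1255 (0.55); 2 brighter probe sets that share its symbol with a microRNA symbol differed by 0.060 and -0.014. DNAJB9, a BiP cofactor strongly induced by ER stress, read 1665 and 1696, and DNAJC3, an inhibitor of the stress kinase of the ER, 1771 and 1764. The dimmer probe sets of DNAJB9 differed by -0.10 and -0.071, and those of DNAJC3 by 0.055 to 0.20. On their brightest probe sets the membrane-bound DNAJB12, DNAJB14, DNAJC1, DNAJC14, DNAJC16 and DNAJC18 lay between -0.017 and 0.098. Of their other detected probe sets, those of DNAJB12 (-0.28 to -0.096), DNAJC16 (-0.35 and -0.12) and DNAJC18 (-0.26) were lower. Those of DNAJC1 (0.11 and 0.15) and DNAJC14 (0.16) were higher, and those of DNAJB14 had both signs. Probe sets of ER genes were less uniform than those of mitochondrial ones. Of the 35 detected ER probe sets 21 were higher, where 53.9% of all detected probe sets were. Of the 12 ER genes with several detected probe sets, 8 had both signs, against 2 of 6 mitochondrial genes. This difference was not tested.

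**Figure D3:**
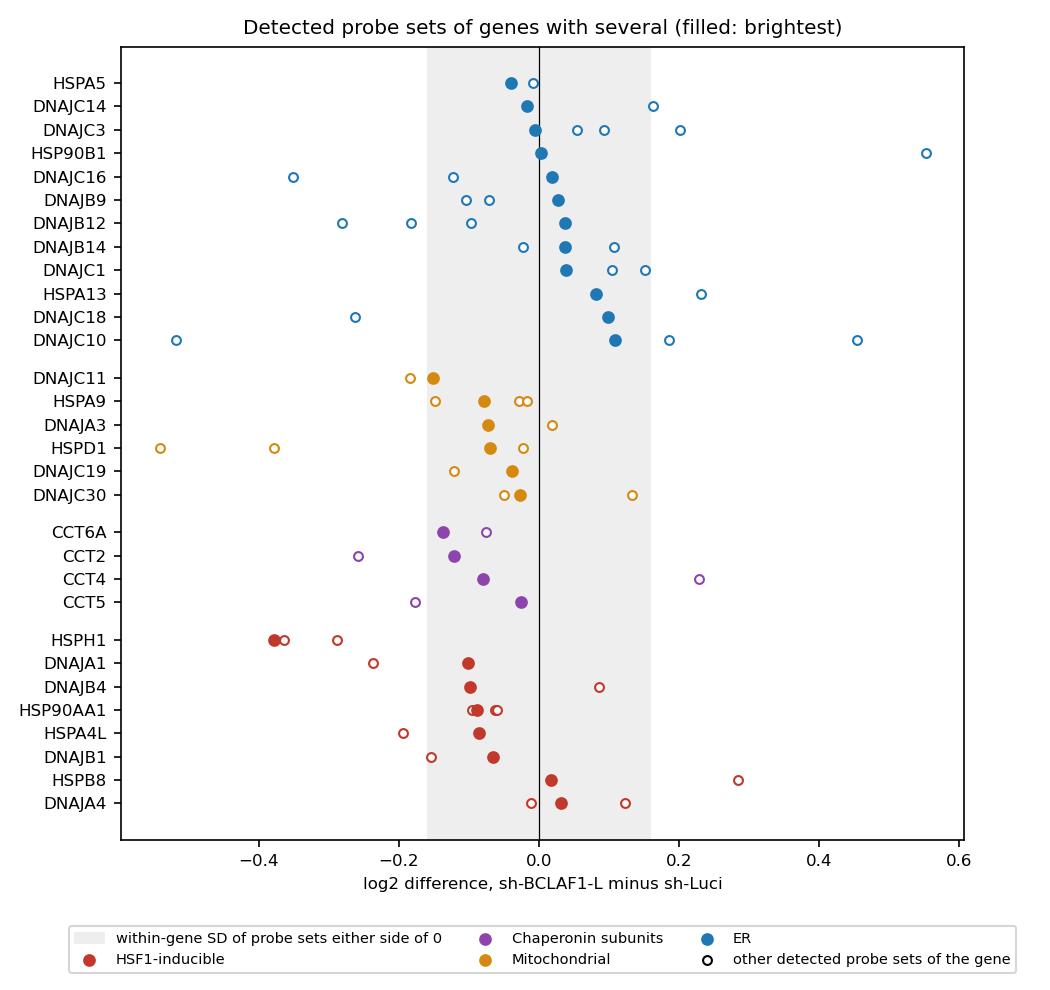
Log2 difference (horizontal axis) of each detected probe set of the HSF1-inducible, chaperonin, mitochondrial and ER genes that have several, with the brightest probe set filled; the shaded band spans the within-gene SD of 0.16 either side of 0. HSPH1 lies outside the band on all 3 of its probe sets, and the 4 probe sets of HSP90AA1 nearly coincide. HSPD1, HSP90B1 and DNAJC10 have dimmer probe sets far from the brightest.

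Other constitutive chaperones and cochaperones of the cytosol and nucleus were split. Of the 23 detected, 12 were lower and 11 higher, with a median of -0.0075. HSP90AB1, the constitutive HSP90, read 7498 and 7068 (-0.085), and its 3 probe sets were all lower, much as for its inducible twin. The HSP110 relative HSPA4 read 3129 and 3216, and HSPA14, the HSP70 of the ribosome-bound complex, 1261 and 1237. DNAJC2, the DNAJ partner of HSPA14 on the ribosome, was lowest with 1434 and 1190 (-0.27), followed by the HSP90 and HSP70 adaptor DNAJC7 with 864 and 728 (-0.25) and DNAJA2 with 1089 and 935 (-0.22). DNAJC7 was lower on all 3 of its probe sets, and DNAJA2 on 1 of 2. The other probe set of DNAJC2, below detection, differed by 0.20. BAG1, a nucleotide exchange factor, read 547 and 507 (-0.11), with 0.10 and -0.26 on its other probe sets.

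At the other end, DNAJB6, which suppresses aggregation of polyglutamine proteins, read 391 and 486, a difference of 0.31. It rested on 1 probe set with its symbol alone; 2 brighter ones that carry a further symbol differed by -0.26 and -0.19, so its direction depends on the probe set. DNAJC24, needed for the diphthamide modification of elongation factor 2, read 549 and 659 (0.26), and BAG4, a silencer of death domains, 469 and 560 (0.26). DNAJC21, a factor of ribosome maturation, read 1212 and 1353 and was higher on all 4 detected probe sets, as DNAJC12 was on 3. Among the cochaperone BAG genes 3 were lower and 3 higher, and among the 26 detected DNAJC genes 12 were lower and 14 higher, so neither family leaned one way.

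The last members were mostly dim. Genes restricted to other tissues or with other roles had 16 of 22 detected, with differences from -0.20 (CCT6B) to 0.17 (DNAJC5B). The HSP70 relatives HSPA1L, HSPA12A and HSPA12B read 72.8 and 80.4, 257 and 269, and 88.3 and 86.9. The muscle small heat shock proteins HSPB2, HSPB3, HSPB6 and HSPB7 read 66.2 to 86.9 in the control, near the detection intensity. Of the antisense and divergent transcripts, 3 of 5 were detected, among them DNAJC27-AS1 with 134 and 112 (-0.26). Below detection were HSPA2, HSPB9, DNAJB7, DNAJB8, DNAJC5G, CCT8L2, DNAJB8-AS1 and HSPA2-AS1, with 6.27 (DNAJB7) to 60.1 (CCT8L2) in the control.

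Genes that work with these chaperones were counted in separate lists. HSP90 and HSP70 cochaperones and further heat-inducible genes had 14 of 20 detected genes lower and a median of -0.050. UNC45A, a myosin chaperone that binds HSP90, was the only gene of the 4 lists past the threshold, with 934 and 742 (-0.33) on one probe set and -0.15 on another. The direction of this list's median depended on the probe sets, being 0.027 over 10 genes without those that can match several transcripts. Prefoldin and other chaperonin partners, which include the substrates ACTB and TUBB, had 8 of 10 lower and a median of -0.046. Mitochondrial partners and proteases had 9 of 13 lower and a median of -0.063. ER chaperones and unfolded protein response genes had 17 of 23 higher and a median of 0.047. The highest were MANF, a secreted ER stress factor (2483 and 2956), and XBP1, the transcription factor of that response (751 and 883). Of the 6 lower ones, P4HB was lowest with 2051 and 1841 (-0.16), and was lower on all 3 of its detected probe sets. The ER stress genes DDIT3 and ATF4 read 591 and 581, and 3636 and 3734. On the brightest probe sets, each partner list had its median on the same side of 0 as the member group it belongs to. Of all detected genes, 45.0% were lower and 55.0% higher, with a median of 0.019, also above 0. The lists were made with earlier results of these data known, so the match in side is only a description.

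**Figure D4:**
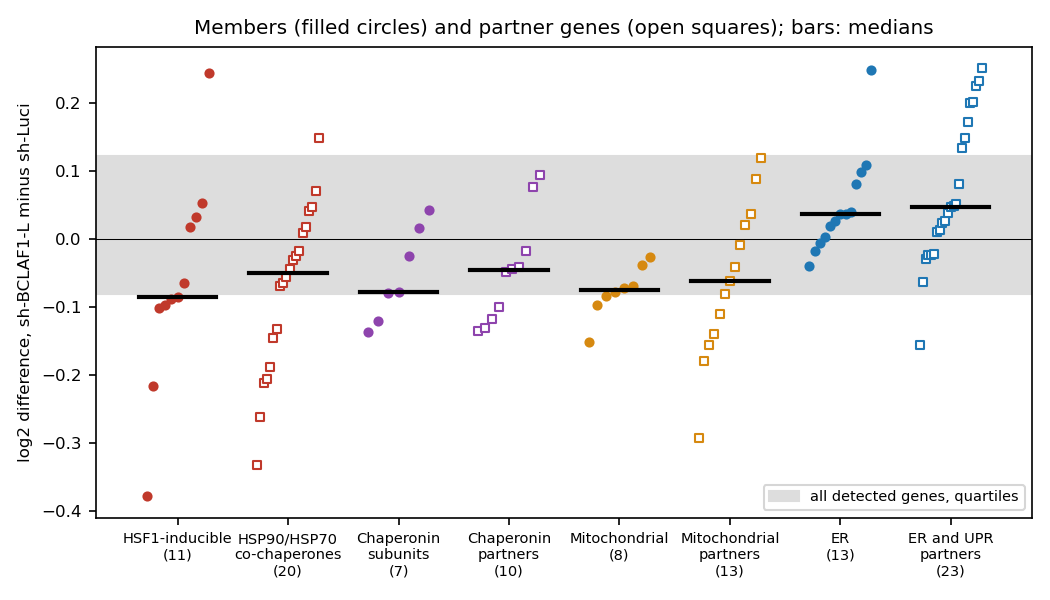
Log2 difference (vertical axis) of the members of each of 4 groups (filled circles) beside the detected genes of its partner list (open squares), with the number of genes in parentheses, medians as black bars and the quartiles of all detected genes in grey. Each partner list has its median on the side of 0 of its group, with ER and unfolded protein response (UPR) genes above and the other lists below.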

How the data were processed

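The deposited table, made by the authors, holds linear probe set intensities for 54675 probe sets on 2 arrays; the submitters' processing notes name RMA, while its version and any later scaling were not given in the sources used here. Each intensity was put on a log2 scale after adding 1, and a gene took its probe set with the highest mean among probe sets with 1 symbol of the platform annotation; all 90 member symbols matched a RefSeq gene of GRCh38.p14. With 1 array per group no test was made, and the log2 threshold of 0.32 is a description. Members, groups, lists and the rule for named genes (HSP families, chaperonin, inducible, mitochondrial and ER genes, any member past the threshold, the 4 lowest and 4 highest other constitutive genes, and up to 4 partners of each list past it) were chosen with earlier results of these data known; other genes named as examples were chosen after their values were seen. Groups rest on general knowledge of location and induction. The summaries were tested on simulated data. The group shifts planted there, where any, were larger than the group medians reported here, so differences this small were not tested. Computation used Python 3.11.15 and pandas 2.3.3. Having 1 array a group is what limits the precision.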

Additional observations from a re-analysis of the deposited data

How the results depend on the processing

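No paired analysis was possible because neither hairpin had a second array, which also left no replicate to leave out. The medians of the HSF1-inducible (-0.11 to -0.074), chaperonin (-0.10 to -0.075) and mitochondrial (-0.10 to -0.061) groups stayed below 0 and that of the ER group (0.012 to 0.073) above it in all alternatives run; leaving out HSPH1 was chosen after seeing the data. After subtraction of the median difference the ER group had 8 of 13 genes higher, its lowest count with all 13 detected, and the median of all members was -0.032, with that of all genes at -0.0070. With the median over probe sets, the constitutive group reversed to 0.0055 and cochaperones moved to -0.099. Without _s_at and _x_at probe sets, cochaperones reversed to 0.027, ER partners moved to 0.082, and the 1 gene past the threshold was HSPD1 (-0.54) in place of HSPH1 (-0.29). The tissue-restricted group reversed to -0.0059 without a filter and to -0.0039 at the 60th percentile. Without a filter 1 member, DNAJB7 (6.27 and 10.8), was past the threshold upward. At a threshold of 0.20, 7 members (8.54%) were lower and 6 (7.32%) higher, against 8.34% and 12.3% of all detected genes, and at 0.58 (1.5-fold) 0 were lower, against 0.200%. The causes were not tested.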
